A study of Mus musculus with 10 samples.

Results

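The genes described here are 10 cytokines and receptors of the IL-6 and IL-10 families, which signal through the transcription factor STAT3. They were taken by name from the deposited expression table (Il6, Lif, Osm, Clcf1, Il6ra, Il6st, Il10, Il19, Il10ra and Il10rb), and all 10 were found among its 55573 genes. The expression values come from RNA-Seq of bone marrow–derived macrophages (BMDMs) from WT female C57BL/6 mice, cultured with MCSF, the growth factor that turns bone marrow cells into macrophages. The study asked how guanosine nucleosides that accumulate when purine nucleoside phosphorylase (PNP) is blocked act on TLR7, the endosomal sensor of single-stranded RNA, and how the response compares with that to a synthetic TLR7 ligand. Cells were treated for 4 hours in 5 groups of 2 libraries each, 10 in all. The first group received vehicle. The second received 5 μg polyU, an ssRNA of uridines complexed with the lipid carrier DOTAP. The third, PNPi+dG/rG, received 1 μM ulodesine, an inhibitor of PNP (PNPi), with 5 μM deoxyguanosine (dG) and 5 μM guanosine (rG), and the fourth, PNPi+dG/rG+polyU, received all of these together. The fifth received 1 ng/mL R848, an imidazoquinoline. The labels name no DOTAP in the vehicle group, so the lipid and the RNA cannot be told apart, and PNPi was never given without the nucleosides.

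IL-6, LIF, oncostatin M (Osm) and CLCF1 are helical cytokines whose receptors share gp130, the product of Il6st. IL-6 first binds the IL-6 receptor α chain (Il6ra), while LIF and oncostatin M recruit the LIF receptor or the oncostatin M receptor beside gp130, and the bound complex activates JAK kinases that phosphorylate STAT3. IL-10, a major restraint on macrophage inflammatory responses, acts through Il10ra, its ligand-specific chain, and Il10rb, which is shared with the receptors of IL-22 and the type III IFNs. IL-19 belongs to the IL-10 family by structure but acts through receptors of the IL-20 type.

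The promoters of Il6, Lif and Il19, the members with the largest change under R848, are shown because Il6 transcription is a textbook case of joint control by NF-κB, AP-1 and C/EBP factors. RefSeq promoter sequences (GRCm38.p6, 250 bases before to 50 bases after the annotated start) were matched for 5 of the 10 members, Il6, Lif, Il19, Il6ra and Il6st. Osm, Clcf1, Il10, Il10ra and Il10rb had no entry in the table used, among them Il10 and Clcf1, which changed more than Lif and Il19 under PNPi+dG/rG+polyU. Capitals mark matches on either strand to 4 motifs, NF-κB (GGGA and TTCC with 2 bases between), AP-1 (TGANTCA), C/EBP (TTGCNNAAT) and STAT (TTCNNNGAA).
Il6, chr5:30012864-30013163, plus strand: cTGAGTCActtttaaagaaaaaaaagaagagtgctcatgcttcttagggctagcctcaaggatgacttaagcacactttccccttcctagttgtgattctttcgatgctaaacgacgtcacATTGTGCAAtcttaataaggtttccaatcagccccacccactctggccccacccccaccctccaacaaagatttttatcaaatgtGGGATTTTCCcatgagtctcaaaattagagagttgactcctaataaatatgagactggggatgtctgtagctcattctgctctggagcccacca
Lif, chr11:4257318-4257617, plus strand: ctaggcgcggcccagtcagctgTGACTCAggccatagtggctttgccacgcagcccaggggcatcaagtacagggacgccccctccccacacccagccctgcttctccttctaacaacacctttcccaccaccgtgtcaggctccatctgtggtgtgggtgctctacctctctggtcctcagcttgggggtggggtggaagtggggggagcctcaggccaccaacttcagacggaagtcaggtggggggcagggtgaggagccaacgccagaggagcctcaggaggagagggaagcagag
Il19, chr1:130940066-130940365, minus strand: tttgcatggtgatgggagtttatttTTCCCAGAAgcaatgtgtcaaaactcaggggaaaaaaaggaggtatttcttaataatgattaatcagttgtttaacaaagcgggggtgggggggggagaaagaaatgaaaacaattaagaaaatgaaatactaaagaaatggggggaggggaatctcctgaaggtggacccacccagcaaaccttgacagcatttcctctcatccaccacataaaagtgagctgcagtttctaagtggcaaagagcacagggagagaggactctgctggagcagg
In the Il6 promoter the NF-κB match began at -44 from the start, the C/EBP match, on the minus strand, at -129, and the AP-1 match at -249. Lif had an AP-1 match at -228 and Il19 a STAT match at -225, and neither held the NF-κB or C/EBP letters. The windows of Il6ra and Il6st, the receptor chains whose transcripts were lowered by at least 1 treatment, held none of these 4 motifs. Of 27025 promoters of this length, 1.43% held the NF-κB letters, 2.42% the C/EBP letters, 7.93% the AP-1 letters and 8.47% the STAT letters. A match describes these letters in this window and no more.

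The 3′ UTRs of cytokine mRNAs often carry ATTTA pentamers, the core of AU-rich elements that bind RNA decay proteins such as tristetraprolin (Zfp36). The Il6 3′ UTR of 427 bases held 6 ATTTA copies, where the median UTR within 25% of its length held 0 and 0.412% held as many. Il10 held 6 copies in 706 bases (2.18% of like UTRs held as many), and Osm 6 in 1017 bases (5.44%). The receptor Il6ra stood at the other end, with 1 copy in 1837 bases and 89.4% of like UTRs holding as many. Cytokines and receptors were not cleanly split. The receptor Il10rb held 4 copies in 711 bases (9.87%) and the cytokine Il19 held 1 in 490 bases (51%). Il10ra held 3 in 1693 bases (52.3%) and Il6st 9 in 5641 bases (58.7%). Windows of 30 bases that hold at least 2 copies, in capitals and counted with overlaps, are shown for the 4 gp130 cytokines (GRCm38).
Il6, chr5:30019684-30019713, plus strand: atttttaATTTAttgataATTTAaataagt
Lif, chr11:4272414-4272443, plus strand: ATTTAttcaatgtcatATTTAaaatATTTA
Osm, chr11:4240945-4240974, plus strand: ttttatATTTAtaaggcctATTTAtaatgt
Clcf1, chr19:4223404-4223433, plus strand: atATTTATTTAtttggagatgttATTTAtt
Lif held 7 copies in a far longer 3′ UTR of 3180 bases, and Clcf1 4 in 922 bases, counts reached by 38.4% and 15.7% of UTRs of like length.

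On GRCm38, Il6 (ENSMUSG00000025746) is at chr5:30013114-30019981, Clcf1 (ENSMUSG00000040663) at chr19:4214238-4223490, Il6st (ENSMUSG00000021756) at chr13:112464070-112510086 and Il10rb (ENSMUSG00000022969) at chr16:91406164-91425834, all on the plus strand. Il6ra (ENSMUSG00000027947) is at chr3:89864059-89913196 and Il10ra (ENSMUSG00000032089) at chr9:45253837-45269149, both on the minus strand. Members lie close together at 2 loci. Osm (ENSMUSG00000058755, chr11:4236420-4241026) and Lif (ENSMUSG00000034394, chr11:4257557-4272514) follow each other on the plus strand with 16.5 kb between them, and Il19 (ENSMUSG00000016524, chr1:130932656-130940115, minus strand) is 79.7 kb from Il10 (ENSMUSG00000016529, chr1:131019845-131024974, plus strand). Exons of Clcf1 and Il10rb overlap another gene on the same strand and those of Il6ra an antisense gene, and the authors' rule for such reads is not given in the sources used here, so the counts of these 3 genes are uncertain.

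Libraries held between 14128123 and 38392592 reads on genes, the most with PNPi+dG/rG and the fewest with PNPi+dG/rG+polyU. Levels are in CPM, reads scaled to the same library total, and 3 reads, taken as the least a library can show, were worth between 0.0781 and 0.212 CPM. Summed over 9 macrophage markers, levels lay between 16167 and 18849 CPM in every library. Lyz2 was the largest part of that sum, and single markers moved both ways. Under vehicle and R848, mean Cd14 was 474 and 3061 CPM, and mean Mertk 40.4 and 5.51 CPM. By the test described below, R848 raised 1 of the 9 and lowered 2, where 9.41% of all genes were called higher and 30.0% lower. Summed over 7 fibroblast markers, they were 0.561 to 1.18 CPM under vehicle, at most 1.44 CPM under polyU or PNPi+dG/rG, 4.03 to 5.28 CPM under PNPi+dG/rG+polyU, where Pdgfrb made up most of the sum, and 139 to 149 CPM with R848. In the R848 libraries 6 of the 7 were above 3 reads, led by Col1a1 at 51.6 and 58.3 CPM, and Lum was at or near 0. The neutrophil list reached 23.0 to 25.2 CPM with R848 through S100a8, with Ly6g, Mpo and Elane at 0. Mean S100a9 went from 1.32 CPM under vehicle to 0.0266 with R848, and mean Camp from 0.0281 to 1.86. The endothelial list, mostly Kdr and Vwf, held 240 to 246 CPM with vehicle and 207 to 208 with PNPi+dG/rG. It held 143 CPM with PNPi+dG/rG+polyU and 64.5 to 69.8 with R848. Its member Pecam1 went the other way, from a mean of 0.196 CPM under vehicle to 1.07 with R848. B cell and dendritic cell markers were at or near 0 throughout.

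Differences were tested with limma on log2(CPM + 0.1) in 1 model of all 10 libraries, for the 11978 genes that reached 1 CPM in 2 or more libraries. A gene was called changed where its Benjamini-Hochberg adjusted p-value was below 0.05 and its change 2-fold or more. All 10 members passed the filter on low values, but Lif and Il19 passed it through the R848 libraries alone and Clcf1 through R848 and PNPi+dG/rG+polyU. Il6 passed it through polyU, PNPi+dG/rG+polyU and R848 alone. Each of these genes therefore had to differ between groups. All p-values measure the spread between libraries that the labels call biological replicates, without saying whether they came from separate cultures. RNA here is bulk, so more cells making a transcript and more transcript per cell cannot be told apart.

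Il6 was almost absent from resting macrophages and was the member with the widest range. Its level was 0.0561 and 0 CPM in the vehicle libraries (1 and 0 reads), 1.08 and 1.28 CPM in those given polyU, 0.0260 and 0.0802 in those given PNPi+dG/rG, 76.4 and 87.4 in those given PNPi+dG/rG+polyU, and 279 and 265 in those given R848. No library of polyU, PNPi+dG/rG+polyU or R848 overlapped another group, and vehicle and PNPi+dG/rG, with 1 to 4 reads per group, could not be told apart at this depth. From pooled reads, Il6 under polyU was 42.0-fold over vehicle (95% exact interval 7.12 to 1697), 2918-fold over it under PNPi+dG/rG+polyU (523 to 115308), and under R848 9618-fold (1726 to 379927). These intervals cover counting error only and are wide because vehicle held 1 read. On the CPM + 0.1 scale that limma tested, the 3 differences were 10.2-fold, 655-fold and 2177-fold. All 3 were called (adjusted p = 3.90e-09, 2.40e-16 and 9.83e-18 from limma). Il6 passed the filter through these 3 treatments alone, so the direction of its rises over vehicle was fixed. Against polyU, PNPi+dG/rG+polyU raised Il6 64.2-fold on the CPM + 0.1 scale (log2 6.00, SE 0.23, adjusted p = 2.48e-13 from limma), and it stayed 3.32-fold below R848 (log2 -1.73, SE 0.23, adjusted p = 3.51e-06 from limma). The R848 libraries also carried the fibroblast marker signal given above, whose part in their Il6 level was not tested.

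Lif, which keeps stem cells undifferentiated and signals through gp130 and the LIF receptor, was raised mainly in the R848 libraries. Lif read 0.168 and 0.112 CPM in the vehicle libraries, 0.114 and 0.116 in those given polyU, 0.0781 and 0.107 in those given PNPi+dG/rG, 0.991 and 0.774 in those given PNPi+dG/rG+polyU, and 20.4 and 21.2 in those given R848. Vehicle and polyU overlapped and PNPi+dG/rG lay just below them, on 2 to 4 reads per library in these 3 groups, while the other two stood above them and apart from each other. PNPi+dG/rG+polyU held 25 Lif reads, 6.28-fold over vehicle (95% exact interval 2.36 to 21.02), and R848 1077 reads, 149-fold over vehicle (63.7 to 460). On the CPM + 0.1 scale that limma tested, these rises were 4.09-fold and 87.55-fold, and both were called (adjusted p = 4.77e-05 and 6.46e-12 from limma). The 21.4-fold lower level under PNPi+dG/rG+polyU than under R848 was called too (log2 -4.42, SE 0.35, adjusted p = 3.46e-09 from limma). Lif passed the filter through the R848 libraries alone, so its calls that involve R848 were fixed in direction. The fibroblast markers given above rose in the same R848 libraries. Their part in the Lif result was not tested.

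Osm was the gp130 cytokine that resting macrophages already expressed and the only one raised by R848 without a call for PNPi+dG/rG+polyU. The vehicle libraries had 11.1 and 12.1 CPM, polyU 8.81 and 9.59, PNPi+dG/rG 11.9 and 14.6, PNPi+dG/rG+polyU 8.07 and 10.9, and R848 32.4 and 32.8. Only the R848 libraries lay clear of all others, 2.81-fold over vehicle (log2 1.49, SE 0.14, adjusted p = 1.32e-08 from limma). Between PNPi+dG/rG+polyU and vehicle Osm differed by log2 -0.30 (95% interval -0.58 to -0.011, adjusted p = 0.0594 from limma) and between PNPi+dG/rG+polyU and R848 it was 3.45-fold lower in the former (log2 -1.79, SE 0.14, adjusted p = 2.43e-09 from limma). Lif, its neighbour on chromosome 11, was called for both stimuli. As for Lif, the part of the fibroblast markers in the R848 level was not tested.

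Clcf1, which acts on a receptor that holds gp130 and the CNTF receptor, was low in the same 3 groups, at 0.281 and 0.449 CPM under vehicle, 0.739 and 0.291 under polyU, and 0.260 and 0.214 under PNPi+dG/rG. The PNPi+dG/rG+polyU libraries held 4.67 and 4.08 CPM, and those given R848 held 3.77 and 3.06. These last groups did not overlap the other 3. The rise was 9.77-fold with PNPi+dG/rG+polyU (log2 3.29, SE 0.36, adjusted p = 3.05e-07 from limma) and 7.65-fold with R848 (log2 2.94, SE 0.36, adjusted p = 7.70e-07 from limma), and the 2 differed by log2 0.35 (95% interval -0.42 to 1.12, adjusted p = 0.397 from limma). That interval leaves room for a 2-fold difference. Clcf1 passed the filter through these 2 groups alone, so the direction of both rises was fixed.

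**Figure D1:**
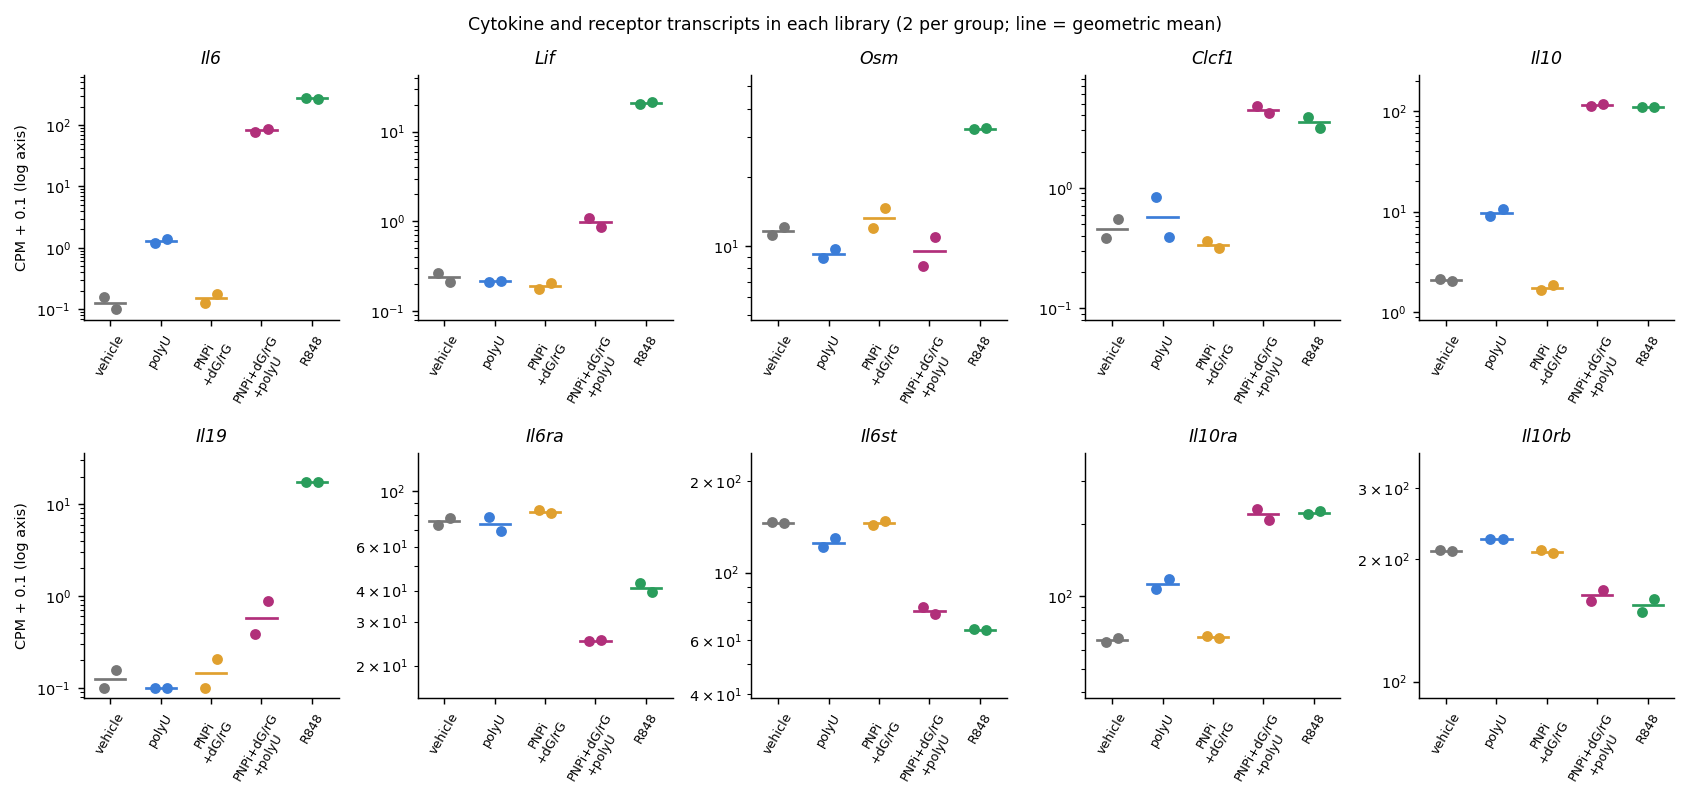
Level of each of the 10 members in each of the 10 libraries, as CPM + 0.1 on a log axis that differs between panels. Points are libraries, 2 per group, and lines are geometric means. Il6, Lif and Il19 are highest with R848, Il10 lies between 109 and 116 CPM in the 4 libraries of PNPi+dG/rG+polyU and R848, and Il6ra is lowest with PNPi+dG/rG+polyU at 25.1 CPM.

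The receptor chains for IL-6 stood below vehicle under both strong inducers of the cytokine. Il6ra stood at 73.5 and 78.3 CPM under vehicle, 79.0 and 69.5 under polyU, 83.9 and 81.8 under PNPi+dG/rG, 25.1 in both PNPi+dG/rG+polyU libraries, and 42.7 and 39.3 under R848. Vehicle and polyU overlapped and PNPi+dG/rG lay just above them, while the PNPi+dG/rG+polyU libraries were lowest, below both R848 libraries. Il6ra fell 3.02-fold with PNPi+dG/rG+polyU (log2 -1.59, SE 0.070, adjusted p = 7.56e-13 from limma). With R848 it was 1.85-fold lower (log2 -0.89, SE 0.070, adjusted p = 1.76e-09 from limma), short of the 2-fold limit, and the difference between the 2 groups was log2 -0.70 (SE 0.070, adjusted p = 8.60e-08 from limma). Il6st, which encodes the signal-transducing chain gp130, stood at 147 and 145 CPM under vehicle, 121 and 130 under polyU, 143 and 148 under PNPi+dG/rG, 77.0 and 72.8 under PNPi+dG/rG+polyU, and 65.1 and 64.5 under R848. Here R848 was lowest, 2.25-fold under vehicle (log2 -1.17, SE 0.053, adjusted p = 5.28e-13 from limma), and PNPi+dG/rG+polyU was 1.95-fold lower (log2 -0.96, SE 0.053, adjusted p = 1.80e-11 from limma), just short of the limit. The median of all genes tested was itself lower by log2 0.49 with R848 and 0.22 with PNPi+dG/rG+polyU. With libraries centred on that median Il6st was lower by log2 0.58 with R848, no longer 2-fold, while Il6ra stayed called with PNPi+dG/rG+polyU at log2 -1.38 and was at log2 -0.30 with R848. For Il6st, PNPi+dG/rG+polyU less R848 went from log2 0.21 to -0.17 (adjusted p = 0.00981 from limma), so which of them had less Il6st turned with the scaling.

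Il10 rose with polyU and reached like CPM under PNPi+dG/rG+polyU and R848. Il10 read 2.02 and 1.97 CPM under vehicle, 8.92 and 10.5 under polyU, 1.56 and 1.76 under PNPi+dG/rG, 113 and 116 under PNPi+dG/rG+polyU, and 109 and 110 under R848. The groups did not overlap, but the last 2 named nearly met. Il10 rose 4.68-fold with polyU (log2 2.23, SE 0.11, adjusted p = 4.58e-11 from limma), 54.7-fold with PNPi+dG/rG+polyU (log2 5.77, SE 0.11, adjusted p = 7.60e-18 from limma) and 52.4-fold with R848 (log2 5.71, SE 0.11, adjusted p = 3.19e-18 from limma). The last 2 differed by log2 0.064 (95% interval -0.17 to 0.30, adjusted p = 0.615 from limma). With libraries centred on their median this became log2 -0.32 (adjusted p = 0.0189), under the 2-fold limit as well but in the other direction.

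Il19, the neighbour of Il10 on chromosome 1, did not share that pattern. Its CPM was 0 and 0.0562 under vehicle, 0 in both polyU libraries, 0 and 0.107 under PNPi+dG/rG, 0.283 and 0.774 under PNPi+dG/rG+polyU, and 17.3 and 17.4 under R848. With R848, 894 reads stood against 1 with vehicle, a ratio of 618 from pooled reads (95% exact interval 111 to 24454). On the CPM + 0.1 scale that limma tested, the rise was 139.6-fold (adjusted p = 2.71e-10 from limma). Il19 passed the filter through the R848 libraries alone, so its calls that involve R848 were fixed in direction. The PNPi+dG/rG+polyU libraries held 15 reads, called over vehicle (adjusted p = 6.91e-04 from limma) and at least 6.14-fold higher than polyU, where no read was seen and the bound uses 3 reads over the group. Il19 was 30.1-fold lower under PNPi+dG/rG+polyU than under R848 (log2 -4.91, SE 0.49, adjusted p = 9.61e-08 from limma), and as for Lif, the part of the fibroblast marker signal of the R848 libraries in this difference was not tested.

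The IL-10 receptor chains moved apart. Il10ra read 64.3 and 67.0 CPM under vehicle, 107 and 118 under polyU, 68.0 and 66.8 under PNPi+dG/rG, 231 and 207 under PNPi+dG/rG+polyU, and 218 and 227 under R848. Vehicle and PNPi+dG/rG overlapped, as did PNPi+dG/rG+polyU and R848, with polyU between. The difference from vehicle was 1.71-fold with polyU (log2 0.77, SE 0.060, adjusted p = 1.60e-08 from limma), below the 2-fold limit, 3.33-fold with PNPi+dG/rG+polyU (log2 1.73, SE 0.060, adjusted p = 2.26e-14 from limma) and 3.38-fold with R848 (log2 1.76, SE 0.060, adjusted p = 8.78e-15 from limma). Il10rb was called in no comparison. Its level was 211 and 209 CPM under vehicle, 224 in both polyU libraries, 210 and 208 under PNPi+dG/rG, 158 and 168 under PNPi+dG/rG+polyU, and 149 and 160 under R848. Its difference of log2 -0.45 with R848 lay close to the median of all genes, log2 -0.49, and turned to 0.15 with centred libraries.

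Because CPM carries no gene length, levels of different members were compared per kb of exon. With vehicle the order was Il10rb at 55.2 ± 0.29, Il10ra at 18.8 ± 0.56, Il6st at 13.1 ± 0.11, Il6ra at 8.78 ± 0.40, Osm at 5.09 ± 0.32 and Il10 at 1.52 ± 0.029 CPM per kb (mean ± SD, n = 2), with Clcf1, Lif, Il19 and Il6 below 0.1 CPM per kb. Resting cells thus held more transcript of the receptors than of any of the cytokines. With R848 Il6 led at 112 ± 4.34 and Il10 followed at 83.6 ± 0.78, ahead of Il10ra at 63.6 ± 1.68 and Il10rb at 40.5 ± 2.11 CPM per kb. With PNPi+dG/rG+polyU Il10 led instead, at 87.4 ± 1.83, followed by Il10ra at 62.6 ± 4.75, Il10rb at 42.8 ± 1.77 and Il6 at 33.7 ± 3.18 CPM per kb. Each of these neighbours stood further apart than its SDs.

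Counted over the members, polyU alone raised 2 of 10 (Il6 and Il10) and lowered none, where 3.26% of all genes tested were called higher, 0.860% lower and 4.12% in either direction. Il6 passed the filter only through groups where it was high, polyU among them. Without polyU, PNPi+dG/rG changed 0 of 10 members, and the limma test called 0.00835% of all genes, which was the single gene Gm21887 (log2 -1.08, SE 0.19, adjusted p = 0.0102), named after its value was seen. Of the members, 1 had an unadjusted p-value under 0.05 there, Il10 at log2 -0.25 (95% interval -0.48 to -0.017, adjusted p = 0.491 from limma), against 9.27% of all genes. For the receptor chains, where reads were plentiful, the 95% intervals of this comparison stayed within log2 -0.11 to 0.28, whereas for Il6, Lif, Clcf1 and Il19 low counts left intervals wider than log2 0.9.

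Together with polyU, PNPi+dG/rG raised 6 members (Il6, Il10, Clcf1, Il19, Lif and Il10ra) and lowered 1 (Il6ra), where 8.28% of all genes were called higher, 14.7% lower and 23.0% either way. R848 raised 7, the same 6 and Osm, and lowered 1 (Il6st), where 9.41% of all genes were called higher, 30.0% lower and 39.4% either way. Lif, Il19 and Clcf1 are in both counts although they passed the filter only through these groups, and Il6 although it passed only through these and polyU. Among the other members, which reached 1 CPM in all 10 libraries, the higher calls were Il10 and Il10ra under PNPi+dG/rG+polyU, and Il10, Il10ra and Osm under R848. Without either R848 library, an analysis added after the data were seen, Lif and Il19 no longer passed the filter and 5 members were called for PNPi+dG/rG+polyU against vehicle. These comparisons share the vehicle libraries.

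**Figure D2:**
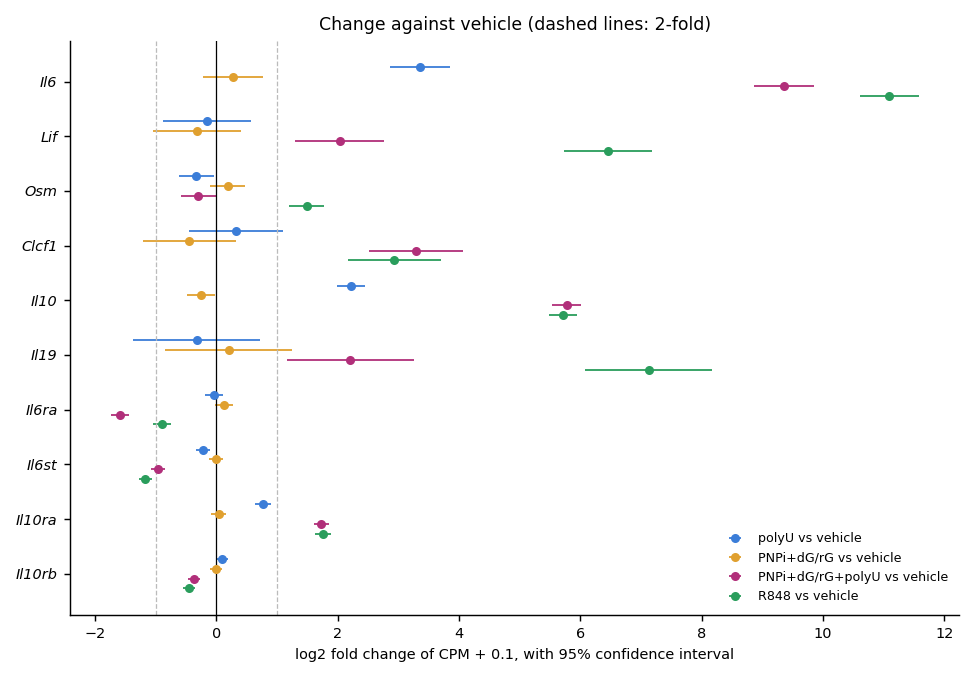
Difference of each member from vehicle as a log2 fold change of CPM + 0.1, with 95% confidence intervals from limma over 10 libraries and dashed lines at 2-fold. Il6 lies furthest to the right at 11.09 with R848, the PNPi+dG/rG points lie near 0, and Osm lies right of the 2-fold line with R848 only.

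Adding PNPi+dG/rG to polyU raised 5 members (Il6, Il10, Clcf1, Il19 and Lif) and lowered 1 (Il6ra), where 5.73% of all genes were called higher, 10.4% lower and 16.1% either way. Il10 was 11.7-fold higher than with polyU alone (log2 3.55, SE 0.11, adjusted p = 1.25e-14 from limma), Clcf1 7.80-fold higher (log2 2.96, SE 0.36, adjusted p = 1.60e-06) and Il6ra 2.95-fold lower (log2 -1.56, SE 0.070, adjusted p = 1.96e-12). Clcf1 passed the filter through PNPi+dG/rG+polyU and R848 alone, so its rise over polyU was fixed in direction. That filter bears on its interaction call below as well. Il10ra lay just below the limit at 1.95-fold (log2 0.96, SE 0.060, adjusted p = 1.92e-10 from limma). The same 6 members were called in the test of whether PNPi+dG/rG acted differently with polyU than without it, the interaction, where 5.04% of all genes were called higher, 9.40% lower and 14.4% either way. Its log2 estimate was 5.73 for Il6 (SE 0.33, adjusted p = 1.54e-10 from limma), 3.80 for Il10 (SE 0.16, adjusted p = 1.92e-12) and -1.69 for Il6ra (SE 0.099, adjusted p = 2.12e-10). For Il6 that estimate hangs on the 0 to 3 reads of the vehicle and PNPi+dG/rG libraries, and with the deposited offset of 0.0001 CPM in place of 0.1 it was 1.85 with adjusted p = 0.736. The Il19 call in this test was lost without PNPi+dG/rG replicate 1 (adjusted p = 0.0610 from limma) and without PNPi+dG/rG+polyU replicate 2 (0.0555).

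Against R848, PNPi+dG/rG+polyU had 4 members lower (Il19, Lif, Osm and Il6) and 0 higher, where 4.68% of all genes were called lower, 16.6% higher and 21.3% either way. Lif and Il19 passed the filter through the R848 libraries alone, so their direction here was fixed, and without R848 replicate 1 or without R848 replicate 2 the count was 2 (Osm and Il6). The other 6 were not called, and for Il10, Il10ra and Il10rb the 95% intervals lay within log2 -0.17 to 0.30, narrower than a 2-fold difference in either direction. With libraries centred on their median Il6ra was also called lower, at log2 -1.09. Il10, Il10ra and Il10rb then fell below those intervals, at log2 -0.32, -0.41 and -0.30 (adjusted p = 0.0189, 1.44e-05 and 1.61e-05 from limma). These differences stayed under 2-fold, but how alike the groups were in these genes depended on the scaling.

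**Figure D3:**
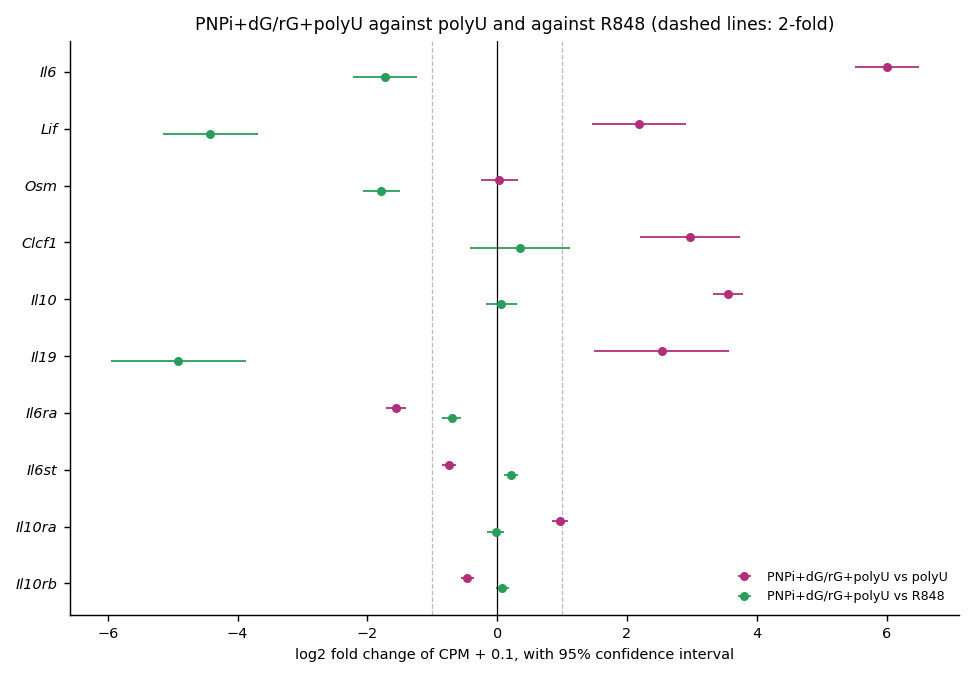
Difference of PNPi+dG/rG+polyU from polyU and from R848 for each member, as a log2 fold change of CPM + 0.1 with 95% confidence intervals from limma and dashed lines at 2-fold. Il6, Il10, Clcf1, Il19 and Lif lie right of the 2-fold line against polyU, while Il6, Lif, Osm and Il19 lie left of it against R848.

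**Figure D4:**
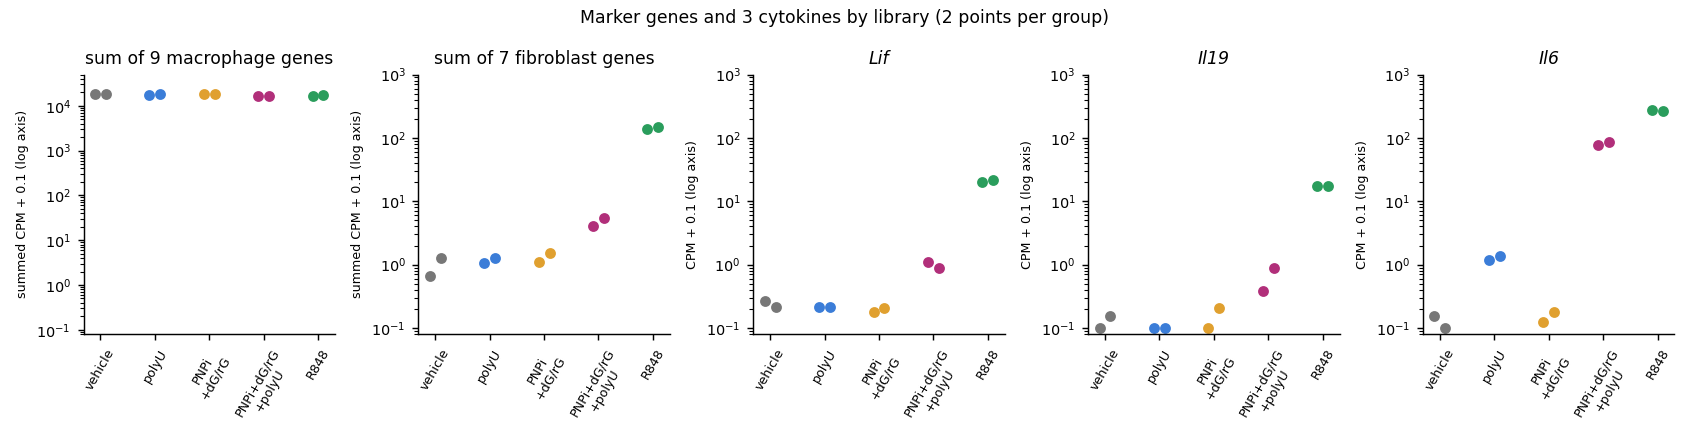
Summed CPM + 0.1 of 9 macrophage and 7 fibroblast marker genes, and CPM + 0.1 of Lif, Il19 and Il6, in each library on log axes, with 2 points per group. The macrophage sum, with Lyz2 its largest part, stays between 16167 and 18849 CPM. The fibroblast sum is 139 to 149 CPM with R848 and at most 5.28 CPM elsewhere.

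The other genes of these pathways were read from lists of relatives, signalling parts, target genes and regulators. Of 12 further genes of the IL-6 family, 6 were abundant enough to test. Here PNPi+dG/rG+polyU raised 2, Il27 and Ebi3, the subunits of IL-27, and lowered 1, Lifr, where 8.28% of all genes were called higher and 14.7% lower. R848 raised 3, Il27, Osmr and Ebi3, and lowered none, where 9.41% of all genes were called higher and 30.0% lower. Osmr reached 1 CPM in the R848 libraries alone, so it entered the test through the group where it is high and its call was fixed. Il27 was below 1 CPM in both vehicle libraries and passed the filter through groups where it is high, so the direction of its rises was fixed too. Il27 read 0.673 to 0.674 CPM under vehicle, 3.13 to 3.66 under polyU, 99.1 to 99.6 under PNPi+dG/rG+polyU and 108 to 113 under R848 (log2 7.01 and 7.16 over vehicle, SE 0.18 for both, adjusted p = 2.61e-16 and 8.51e-17 from limma). Ebi3 read 46.6 to 50.4 CPM under vehicle, 149 to 154 under PNPi+dG/rG+polyU and 215 to 230 under R848.

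Lifr, the receptor chain for LIF, was 3.37 to 4.16 CPM with vehicle and 1.55 to 1.84 with PNPi+dG/rG+polyU (log2 -1.10, SE 0.24, adjusted p = 6.21e-04 from limma). Osmr, the oncostatin M receptor chain typical of stromal cells, had no read in vehicle and 159 reads, 2.44 to 3.46 CPM, with R848, at least 36.7-fold higher against a bound of 3 reads over the group. It rose where the fibroblast markers rose, and the part of those markers in the result was not tested. Of 10 further genes of the IL-10 family only Il20rb, a chain of the IL-19 receptor, was tested, and it rose from 0.673 to 1.01 CPM under vehicle to 4.88 to 5.98 under PNPi+dG/rG+polyU and 6.74 to 7.84 under R848 (log2 2.57 and 2.99, SE 0.23 for both, adjusted p = 2.28e-08 and 1.57e-09 from limma). Its partner Il20ra was at 0 in every library.

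Of 11 JAK-STAT core genes, PNPi+dG/rG+polyU raised 1 and lowered none, where 8.28% of all genes were called higher and 14.7% lower. R848 raised 3 and lowered 1, where 9.41% of all genes were called higher and 30.0% lower. The list medians were log2 0.27 and 0.56, against -0.22 and -0.49 over all genes tested. Jak2, a kinase that binds gp130, read 48.5 to 51.1 CPM under vehicle, 421 to 439 under PNPi+dG/rG+polyU and 769 to 779 under R848 (log2 3.11 and 3.96, SE 0.047 for both, adjusted p = 9.08e-19 and 1.15e-20 from limma). Stat3 rose with R848, from 110 to 117 CPM with vehicle to 430 to 454 CPM (log2 1.96, SE 0.051, adjusted p = 1.76e-16). Between PNPi+dG/rG+polyU and R848 it differed by log2 -1.26 (SE 0.051, adjusted p = 5.01e-13). Gab1, an adaptor below gp130, read 3.93 to 5.84 CPM under vehicle, 5.73 to 7.11 under PNPi+dG/rG+polyU and 102 to 107 under R848 (log2 4.42, SE 0.19, adjusted p = 2.71e-12 from limma for R848). The fibroblast markers, at 139 to 149 CPM in sum, rose in the same R848 libraries, and their part in the Gab1 result was not tested. The gene lowered by R848 was Pias3, an inhibitor of STAT3 (log2 -1.22, SE 0.092, adjusted p = 8.71e-10).

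Of 13 genes known as STAT3 targets, which other pathways control as well, PNPi+dG/rG+polyU raised 11 and lowered 1, and R848 raised 10 and lowered 1, with list medians of log2 2.33 and 3.06. Over all genes those shares were 8.28% higher and 14.7% lower, and 9.41% and 30.0%. PolyU raised 3 (Socs3, Bcl3 and Cebpd), where 3.26% of all genes were called higher, and PNPi+dG/rG alone none, where 0% were. Socs3, which binds gp130 and shuts off IL-6 signalling, read 3.82 to 4.60 CPM under vehicle, 42.3 to 44.4 under polyU, 6.46 to 10.6 under PNPi+dG/rG, 1963 to 2007 under PNPi+dG/rG+polyU and 2023 to 2152 under R848. The change from vehicle was log2 8.85 and 8.93 with the last pair of treatments (SE 0.23 for both, adjusted p = 2.48e-07 and 1.39e-07 from limma). Saa3, an acute-phase gene, rose by log2 4.73 and 5.92 (SE 0.15, adjusted p = 1.45e-07 and 2.36e-08), and Bcl3, a nuclear IκB protein, by log2 3.99 and 4.49 (SE 0.076, adjusted p = 7.60e-18 and 6.80e-19). The gene lowered by both was Myc, at log2 -2.63 and -2.95 (SE 0.071, adjusted p = 7.86e-16 and 6.81e-17).

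Of 14 genes that control Il6 or Il10 transcription or mRNA decay, PNPi+dG/rG+polyU raised 9 and lowered none and R848 raised 10 and lowered 1 (Irf5), with medians of log2 2.08 and 2.15, beside the same shares of 8.28% and 14.7%, and of 9.41% and 30.0%, over all genes. Nfkbiz, the nuclear IκB protein needed for Il6 transcription, read 13.1 CPM in both vehicle libraries, 67.9 to 72.1 under polyU, 1419 to 1514 under PNPi+dG/rG+polyU and 1051 to 1060 under R848 (log2 6.80 and 6.32, SE 0.075, adjusted p = 1.04e-18 and 5.09e-19 from limma for the last 2). Zc3h12a, whose product Regnase-1 cuts Il6 mRNA in its 3′ UTR, rose by log2 3.39 and 4.27 (SE 0.082, adjusted p = 8.97e-15 and 2.49e-16), and Arid5a, which protects that mRNA, by 3.28 and 2.78 on the log2 scale (SE 0.11, adjusted p = 1.61e-14 and 8.92e-14). Transcripts of both the decay factor and its opponent thus rose with both stimuli. Nfkb1, an NF-κB subunit, rose by log2 2.55 and 2.88 (SE 0.041, adjusted p = 1.27e-18 and 8.30e-20). Of 3 genes for release of the IL-6 receptor from the cell surface, Rhbdf2, which guides ADAM17 to the surface, rose by log2 2.73 and 2.90 (SE 0.052, adjusted p = 7.60e-18 and 1.38e-18 from limma). Adam17 was called with R848 alone at log2 1.00 (SE 0.043, adjusted p = 2.41e-13 from limma), on the edge of the limit. Its mean was 323 CPM under vehicle, 632 under PNPi+dG/rG+polyU and 646 under R848, so the rise was much alike with both stimuli. Adam10, called with neither, had means of 258, 155 and 153 CPM in the same order. Over all these lists polyU alone raised 6 genes, Il27, Il20rb, Socs3, Bcl3, Cebpd and Nfkbiz, where 3.26% of all genes tested were called higher. For Il27 that direction was fixed by the filter, as given above. PNPi+dG/rG alone raised none, where 0% of all genes tested were called higher.

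**Figure D5:**
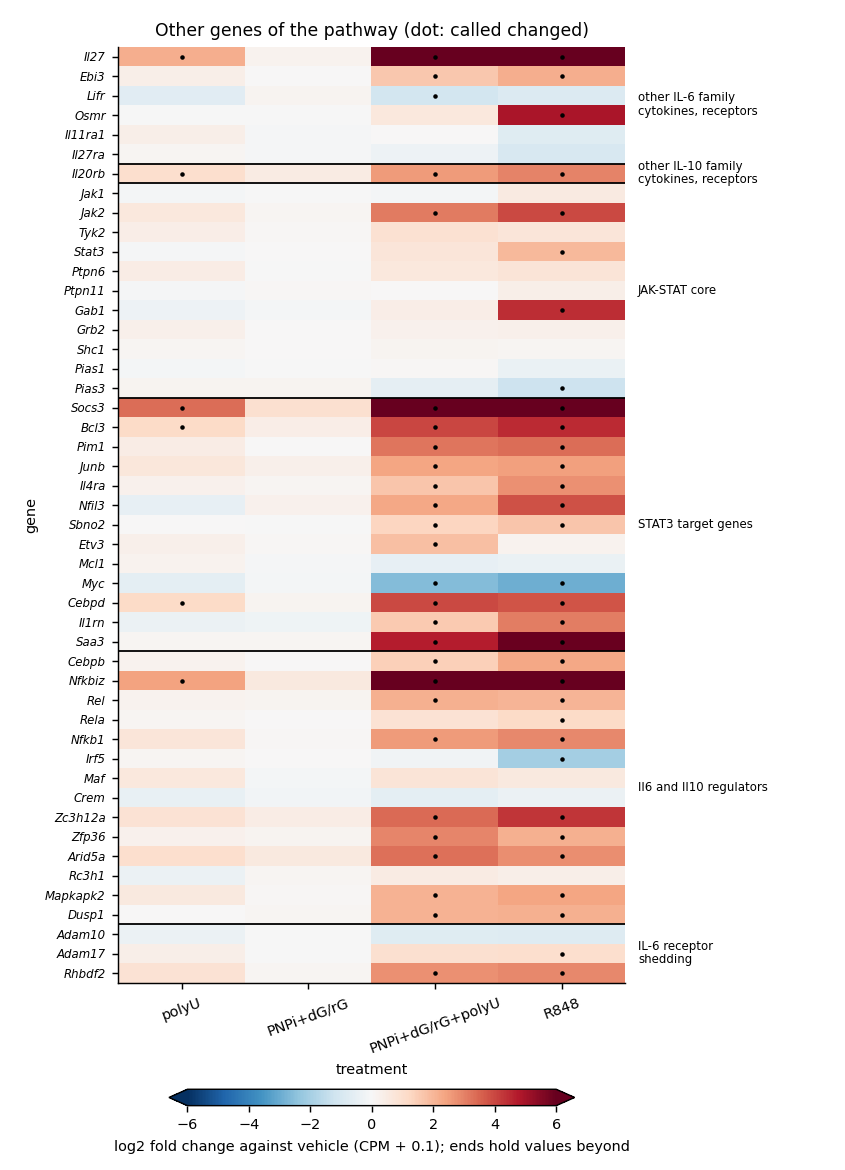
Change from vehicle of the other pathway genes that were tested, by list and treatment, as a log2 fold change of CPM + 0.1 in colour, red for higher and blue for lower. Values beyond 6 take the end colours and a dot marks a called gene. The PNPi+dG/rG column has no dot, and the STAT3 target list has 11 higher and 1 lower with PNPi+dG/rG+polyU.

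Among 8458 genes averaging 10 CPM or more, those whose log2 levels followed Il6 most closely over the 10 libraries were Clec4e, a C-type lectin receptor (Pearson r = 0.9993), Sod2, the mitochondrial superoxide dismutase (r = 0.9988), and Marcksl1 (r = 0.9987). Il10 was followed by Traf1 (r = 0.9978), the adhesion molecule Icam1 (r = 0.9975) and Cd274, which encodes PD-L1 (r = 0.997). Il6ra was followed by Iffo2 (r = 0.992), Fam168b (r = 0.9878) and Nuak2 (r = 0.9874). These values describe 10 points that fall into 5 groups, so they say how alike the group means are. Clec4e, for example, read 222 ± 13.8 CPM (SD, n = 2) under vehicle, 485 ± 12.8 under polyU, 2151 ± 67.1 under PNPi+dG/rG+polyU and 3580 ± 23.6 under R848, the order of Il6, whereas Icam1 read 1087 ± 24.4 CPM under PNPi+dG/rG+polyU and 1159 ± 68.5 under R848, whose SDs overlap as those of Il10 nearly do. Nuak2 was lowest with PNPi+dG/rG+polyU at 8.33 ± 0.064 CPM, below R848 at 13.1 ± 0.15 and vehicle at 28.7 ± 1.10, the order of Il6ra.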

How the data were processed

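RNA-Seq of 10 BMDM libraries was read from 1 table of 55573 genes. The authors deposited values in CPM, that is, read counts per gene brought to equal library totals, with 0.0001 added to each. Per the study's methods, libraries were made with a stranded mRNA kit and sequenced as 50 bp single reads on an Illumina HiSeq, mapped to GRCm38 with STAR 2.27a (bcl2fastq 2.19.1.403 before it, both per the submitters' processing notes), counted on Ensembl release 97 and normalized in Partek Flow. The strand setting and the rule for overlapping genes are not given in the sources used here. CPM does not correct for the share of a library that strongly induced genes take up.

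The offset was subtracted, and depth was worked out from the step between low values, 100% of which, up to 200 reads, were whole multiples within 0.02 reads. Symbols, positions, exon lengths and 3′ UTRs came from GENCODE M21 (55394 identifiers matched) and promoters from RefSeq. Groups and replicate numbers came from the labels. limma 3.58.1 (R 4.3.3, statmod 1.5.0) was fitted to log2(CPM + 0.1) of all 10 libraries with trend and robust eBayes, with Benjamini-Hochberg adjustment over the 11978 genes tested in each comparison, and was tested on simulated data. Ratios over a group that held 10 reads or fewer were taken from pooled reads with exact conditional intervals, and over a group without reads as a bound at 3 reads (scipy 1.17.1). Libraries of a group correlated with r from 0.9949 to 0.9978 across genes, which are not independent, and 15.8% to 26.2% of genes with at least 50 reads differed between them at the 5% level by chi-square, so none counted as a duplicate.

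The members, the pathway and marker lists and the tests were chosen with earlier results of these data known. Of the pathway lists, 2 genes are not reported here and were left out of the counts. All 10 members were named whatever their values, with at most 3 called genes per pathway list for PNPi+dG/rG+polyU and R848 against vehicle and the 3 genes closest in pattern to Il6, Il10 and Il6ra, and Gm21887 and the marker genes were named after their values were seen. Other pseudocounts, no filter, median-centred libraries, a replicate block and leaving out each library were tried, as was leaving out both R848 libraries, which was added after the data were seen.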

Additional observations from a re-analysis of the deposited data

Results flagged for a closer look

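For 6 members the effect of PNPi+dG/rG differed between cells with polyU and cells without it, by limma's interaction test over all genes at 2-fold or more. The difference of the 2 effects, on the log2(CPM + 0.1) scale, was 5.73 for Il6, 3.80 for Il10, 3.41 for Clcf1, 2.50 for Lif and 2.33 for Il19, and -1.69 for Il6ra. For Clcf1, Lif and Il19 the adjusted p-values from limma were 3.26e-05, 3.98e-04 and 0.0101. Clcf1 passed the filter through PNPi+dG/rG+polyU and R848 alone, and Il6 through these and polyU, the groups where they were high. Il6, Lif and Il19 rest on few reads without polyU, and their calls were not held under every setting. The Il19 call was lost without PNPi+dG/rG replicate 1 (adjusted p = 0.0610 from limma), without PNPi+dG/rG+polyU replicate 2 (0.0555), and with a pseudocount of 0.0001 CPM (0.0614) or 1 CPM (0.0553). The Lif difference was log2 0.81, under 2-fold, with a pseudocount of 1, and the Il6 call was lost with a pseudocount of 0.0001 (adjusted p = 0.736). Without R848 replicate 1 or without R848 replicate 2, Lif and Il19 no longer passed the filter. With both nucleosides and PNPi but no polyU, Il19 held 4 reads, all in 1 library.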

How the results depend on the processing

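Leaving out each library in turn gave member counts of 2 for polyU against vehicle, 0 for PNPi+dG/rG, 5 to 8 for PNPi+dG/rG+polyU and 6 to 8 for R848, 4 to 7 for PNPi+dG/rG+polyU against polyU, 2 to 4 against R848 and 4 to 6 for the interaction. The low ends, among them 2 in place of 4 against R848, come from leaving out either R848 library, after which Lif and Il19 no longer pass the filter by construction. Over all genes, the 1 call for PNPi+dG/rG became 1 to 5, with 5 without vehicle replicate 1, 4 without PNPi+dG/rG replicate 1 and 2 without vehicle replicate 2 or either R848 library. It became 2 without both R848 libraries, 9 with a pseudocount of 0.0001 CPM and 0 with a pseudocount of 1, and the 494 calls for polyU became 303 with a pseudocount of 1.

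With a pseudocount of 0.0001, where a library without reads sits far below 1 read, the member count fell to 1 for polyU against vehicle and 2 for PNPi+dG/rG+polyU against R848, and Il6 lost its call in those comparisons (adjusted p = 0.0612 and 0.619), against polyU (0.119) and in the interaction (0.736). Il19 lost 3 calls with it. With a pseudocount of 1, Lif and Il19 fell below 2-fold in PNPi+dG/rG+polyU against vehicle (log2 0.72 and 0.55), against polyU (0.75 and 0.59) and in the interaction (0.81 and 0.56). The Il19 interaction also lost its call without PNPi+dG/rG replicate 1 (adjusted p = 0.0610) and without PNPi+dG/rG+polyU replicate 2 (0.0555). Just over 2-fold were Il10ra against polyU without polyU replicate 2 (log2 1.03) or PNPi+dG/rG+polyU replicate 2 (1.04), and Il6st with PNPi+dG/rG+polyU without its replicate 1 (-1.001).

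Centring libraries on their median turned the split of all genes with R848 from 1127 higher and 3595 lower to 1846 and 2054, and with PNPi+dG/rG+polyU from 992 and 1759 to 1214 and 1264. Against polyU it became 901 higher and 772 lower (686 and 1246 before), against R848 1110 and 952 (1985 and 561), and in the interaction 841 and 599 (604 and 1126). It called Il10ra against polyU (1.22) and in the interaction (1.21). It reversed the sign of uncalled members, Il10rb with R848 (0.15), Clcf1, Il6st, Il10 and Il10rb against R848 (-0.029, -0.17, -0.32 and -0.30) and Osm in the interaction (0.13).

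The other reversals came from leaving out 1 library in comparisons that were not called, where values spanned 0. With polyU they ran from -0.32 to 0.017 for Lif, -0.23 to 0.88 for Clcf1 and -0.13 to 0.059 for Il6ra (with 0.013 in between), and with PNPi+dG/rG from -0.051 to 0.59 for Il6, -0.024 to 0.022 for Il6st (0.0070 in between), -0.32 to 0.73 for Il19 (-0.12 in between) and -0.017 to 0.0013 for Il10rb. Against polyU Osm ran from -0.19 to 0.24 (-0.031 in between), against R848 Il10ra from -0.10 to 0.053 (0.0022 in between), and in the interaction Osm from -0.37 to 0.057. Their cause was not tested.

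Equal replicate numbers marked no deviation that ran the same way in all groups (median r = -0.0219 over 10 pairs of groups, from -0.297 to 0.249, on 8459 genes), so the numbers were not taken as pairing. Single pairs of groups did deviate together or in opposite ways, with r = 0.249 for vehicle and polyU and -0.297 for vehicle and PNPi+dG/rG. The cause was not tested. A fit with the replicate block gave 492 calls for polyU in place of 494 and the same member counts in all 7 comparisons. The planned count test on recovered reads was not run. The table as deposited holds CPM with the offset, and reads recovered by subtracting it were used for ratios of low counts only. Depth limits Il6, Lif, Il19 and Clcf1 in unstimulated cells, where 3 reads are worth 0.0781 to 0.212 CPM.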
